A study of Mus musculus with 2 samples.

Results

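The transcripts described here encode the extracellular matrix of fibroblasts, the integrins that bind it and the proteases that cut it. They are every listed gene whose symbol matched a fixed pattern of collagens, laminins, fibronectin and other matrix glycoproteins, lysyl and prolyl hydroxylases, lysyl oxidases, integrins, metalloproteinases and their inhibitors. Of 188 genes sought in 12 roles, 60 were among the 3134 genes in the table, all of them protein-coding. The study profiled RNA bound by HP1 alpha, a protein of heterochromatin, with eCLIP, an assay in which ultraviolet light joins proteins to the RNA they touch and the RNA recovered with the protein is sequenced. Both libraries came from NIH3T3, an established mouse fibroblast line with no stated treatment or genotype change. For the HP1 library the protein was precipitated with an antibody to HP1 alpha, and the input library was made without antibody. The count columns are headed MEF, and the control column mock, where the labels say NIH3T3 and input.

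Fibroblasts secrete fibrillar collagens, which assemble into the fibres of connective tissue after their chains are hydroxylated, folded and cross-linked. Laminins, type IV collagen and perlecan form basement membranes, and fibronectin and matricellular proteins connect fibres to cells through integrins. ADAM, ADAMTS and matrix metalloproteinases release or cut these proteins, and tissue inhibitors of metalloproteinases (TIMPs) block that cutting. HP1 alpha binds methylated histone H3 in heterochromatin and can also bind RNA.

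Each group had 1 library, so no difference could be set against a spread between replicates, and no p-value is given. The listed counts added up to 513965 in the HP1 library and 830031 in the input. Counts were expressed as a share of these totals, and the HP1 share over the input share is called the ratio. Brackets give exact 95% intervals, which cover counting error only, since each group had 1 library. PCR copies could not be told from separate molecules, and where copies were counted the intervals are too narrow. Calls of higher or lower required a log2 ratio past 2-fold together with an interval off 1. The ratio sets RNA recovered with HP1 alpha against input from the same line and does not measure a change in expression. In bulk RNA, cells that hold a transcript cannot be told from cells that do not. Of 15 fibroblast markers, 10 were listed, among them Col1a1, Fn1, Vim and Pdgfrb, whereas 0 of 13 immune, epithelial and endothelial markers were. Of the listed markers only Vim, Pdgfrb and S100a4 are not members themselves. The fibroblast markers Thy1, Pdgfra, Fap, Lum and Dcn were not listed. The table holds only genes with at least 100 counts in 1 of the libraries. Of the 60 members, 17 had fewer than 100 counts in the HP1 library and were listed through their input count, and none had fewer than 100 in the input. For 7 of those 17 (Thbs3, Loxl4, Loxl3, Adamts10, Adam15, Plod1 and Col5a3) this limit alone fixed a ratio under 1.

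The 60 members took a smaller share of the listed counts in the HP1 library than in the input. Together the 60 genes held 18596 counts, or 3.62% (3.57 to 3.67), of the listed HP1 counts. In the input they held 37020 counts, or 4.46% (4.42 to 4.50), of the listed counts. Their summed ratio was 0.811 (0.797 to 0.826). Without the 5 members with the most input counts the ratio was 0.823 (0.805 to 0.841). The median log2 ratio of the members was -0.43, against -0.21 over all listed genes, and 51 of the 60 had ratios under 1. Single differences were small. Of the 60 members, 0 were called higher, against 2.36% of all listed genes, and 2 were called lower, Thbs3 and Adam15, against 0.83%. For Thbs3 the listing limit alone fixed a ratio past 2-fold.

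The interval lay wholly below 1 for 40 of the 60 members, against 32.6% of all listed genes, and wholly above 1 for 6, or 10%, against 15.4%. Of the 7 members whose ratio the listing limit fixed under 1, all but Loxl3 are among these 40, so their direction tells nothing. The same 32.6% and 15.4% are the background for the roles and lists below. Members had more counts than most listed genes, with a median of 369 in the input against 186, and more counts give narrower intervals. Among the 38 members with at least 400 counts over both libraries, 29 lay below 1 and 4 above, against 34.2% and 30.2% of the 1018 listed genes with as many counts. The split also moved with the scaling between the libraries. With TMM factors, which raise every log2 ratio by 0.20, 25 members lay below 1 and 7 above, against 13.7% and 23.3% of all listed genes. With DESeq2 size factors, which raise it by 0.21, the numbers were 24 and 8, against 12.4% and 23.9%. The direction turned under DESeq2 scaling for 9 members, Adam19, Col1a1, Fbln1, Fbn1, Itgb1, Itgb5, Lama4, Ltbp2 and P4ha2, and under TMM scaling for these except Itgb1 and Ltbp2.

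**Figure D1:**
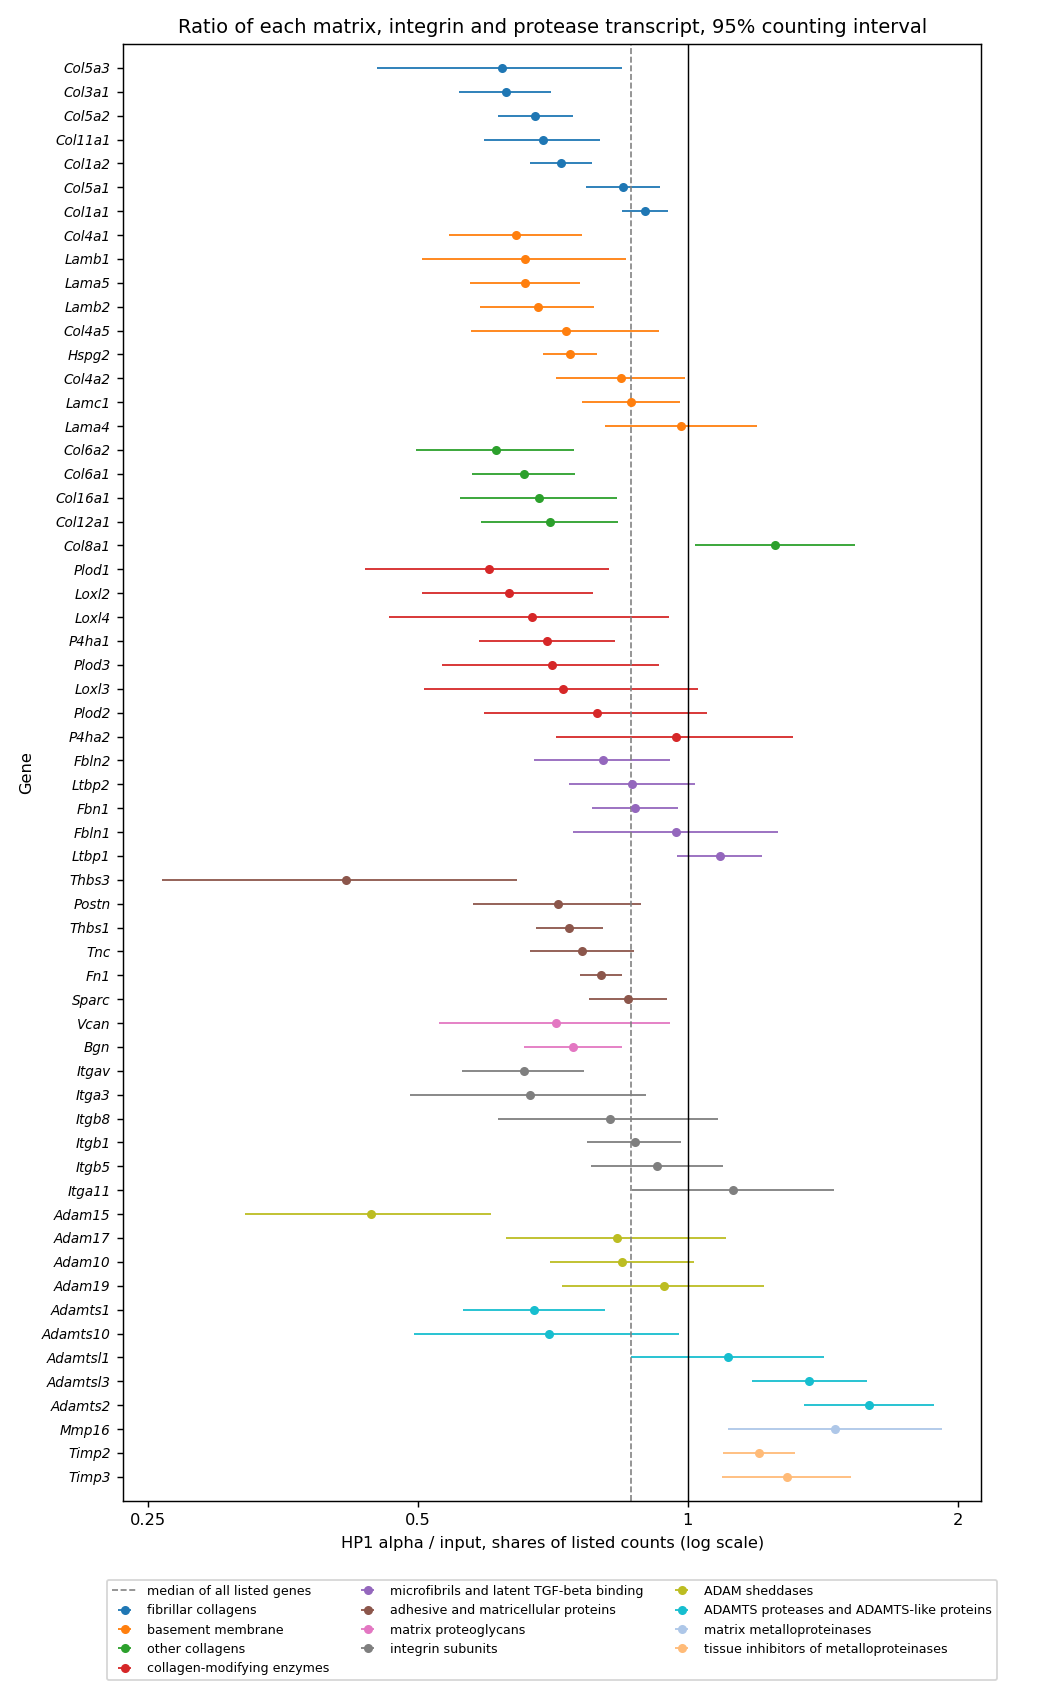
Ratio of HP1 alpha over input for the 60 genes on a log axis, grouped by role, with exact 95% counting intervals from 1 library a group. The solid line marks 1 and the dashed line the median of all listed genes. Most collagens and laminins sit left of both lines, Thbs3 and Adam15 are lowest, and Adamts2, Mmp16, Adamtsl3, Timp3, Col8a1 and Timp2 have intervals wholly above 1.

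The 7 listed fibrillar collagen chains all had intervals below 1, with a median ratio of 0.689. Together they held 0.903% (0.877 to 0.929) of the listed HP1 counts and 1.17% (1.14 to 1.19) of the listed input counts. Col3a1, the single chain of type III collagen, had 390 counts in the HP1 library and 1006 in the input, a ratio of 0.626 (0.556 to 0.704). Col5a2, a chain of the type V collagen that nucleates type I fibrils, had 600 and 1434 counts, with 0.676 (0.613 to 0.744). These lay further from 1 than the chains with the most counts. Col1a2, the second chain of type I collagen, had 908 and 2030 counts, giving a ratio of 0.722 (0.667 to 0.782). Col1a1, its partner chain, had 1765 and 3184 counts and 0.895 (0.844 to 0.949). In GRCm38.p6 Col1a1 occupies 16.8 kb of chromosome 11, between 94936224 and 94953042, and its 189 input counts per kb were the densest of all members. Col5a1 had 665 and 1268 counts and 0.847 (0.770 to 0.931), Col11a1 had 255 and 598, and Col5a3 had 58 and 151 with a ratio of 0.620. For Col5a3 the listing limit fixed a ratio under 1. An interval below 1 remained for 5 of the 7 with TMM and with DESeq2 factors, the exceptions being Col1a1 and Col5a1.

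In 3 of the 4 collagen pairs compared, the ratios of chains of one molecule differed with a counting interval off 1. With 1 library a group, whether they would differ again between replicates is not known. The HP1 to input ratio of Col1a1 was 1.24 times (1.12 to 1.37) that of Col1a2, although the type I molecule contains both. That of Col5a1 was 1.25 times (1.09 to 1.44) that of Col5a2. For Col4a1 and Col4a2, which start head to head on chromosome 8 and encode the chains of the common type IV collagen, the first ratio was 0.764 times (0.601 to 0.971) the second. Their RefSeq models share 85 bases. Col6a1 and Col6a2, chains of the beaded type VI collagen, gave 1.07 (0.842 to 1.37), an interval that holds 1. These comparisons within a library do not depend on how the libraries were scaled. Of 7 gene pairs compared in this way, 4 had intervals off 1. Other gene pairs were not compared, so the count shows nothing particular to partner chains.

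Basement membrane transcripts had the same direction as the fibrillar chains. Of 9 listed, 8 had intervals below 1 and none above, with a median ratio of 0.732, and 5 of them kept it under TMM and DESeq2 scaling. Hspg2, the gene of the heparan sulfate proteoglycan perlecan, had 1176 counts in the HP1 library and 2572 in the input, a ratio of 0.738 (0.689 to 0.791). Lama5, a laminin alpha chain, had 281 and 689 counts and 0.659 (0.571 to 0.758). Lamb2, a laminin beta chain, had 264 and 627 counts and 0.680 (0.587 to 0.786), and Lamb1, another, had 84 and 206 and 0.659 (0.505 to 0.853). Lamc1, the gamma chain that most laminins share, was nearer to 1, with 387 and 723 counts and 0.864 (0.762 to 0.979). The ratio of Lamb1 over that of Lamc1 was 0.762 (0.567 to 1.02), an interval that holds 1. Lama4 had 171 and 281 counts and 0.983 (0.808 to 1.19), the only listed laminin whose interval held 1. Among the type IV chains, Col4a1 had 194 and 487 counts and 0.643 (0.542 to 0.761), and Col4a2 had 221 and 424 and 0.842 (0.712 to 0.993). Col4a5, which is X-linked, had 102 and 225 counts and 0.732 (0.574 to 0.929). It spans 214 kb, and the median ratio of all listed genes between 200 and 500 kb was 1.39.

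Among the other 5 collagens, 4 had intervals below 1 and 1 lay above. Col6a1 had 316 and 778 counts, giving a ratio of 0.656 (0.574 to 0.749), and Col6a2 had 135 and 357 and 0.611 (0.497 to 0.746). Col12a1, a collagen that decorates fibrils, had 187 and 430 counts with 0.702 (0.588 to 0.836), and Col16a1, of the same fibril-associated class, had 142 and 336 with 0.683 (0.557 to 0.833). Col8a1, a short-chain collagen that forms networks, went the other way. It had 169 counts in the HP1 library and 218 in the input, a ratio of 1.25 (1.02 to 1.54). Of all 15 collagen chains listed, 14 had intervals below 1, and Col8a1 was the exception. With TMM and with DESeq2 factors 10 of the 15 did.

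Enzymes that modify collagen chains, 8 in number, had ratios from 0.600 to 0.969, and 5 had intervals below 1. With TMM and with DESeq2 factors 3 did, and relative to the span classes described further on 2 did. P4ha1, a catalytic subunit of prolyl hydroxylase, had 189 and 438 counts and 0.697 (0.584 to 0.828), whereas its relative P4ha2 had 72 and 120 and 0.969 (0.713 to 1.31). Of the lysyl hydroxylases, Plod1 had 58 and 156 counts, Plod2 had 75 and 153, and Plod3 had 76 and 174, with ratios of 0.600, 0.792 and 0.705. The interval of Plod2 held 1. Of the lysyl oxidase relatives, which start the cross-linking of collagen, Loxl2 had 118 and 302 counts and 0.631 (0.506 to 0.783). Loxl3 had 49 and 109 counts and Loxl4 had 46 and 111. The listing limit fixed a ratio under 1 for both, and for Plod1. Loxl4 and Plod1 are among the 5 with intervals below 1, and Plod1 is among the 3 that remained with TMM and DESeq2 factors. Except for P4ha1 and Loxl2, every enzyme of this group had fewer than 100 counts in the HP1 library.

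Adhesive and matricellular proteins included the member with the most counts in each library. Fn1, the gene of fibronectin, had 1937 and 3910 counts, giving a ratio of 0.800 (0.757 to 0.845). Fn1 occupies chromosome 1 between 71585473 and 71653280. Thbs1, which encodes thrombospondin 1, an adhesive protein that also activates latent TGF-beta, had 777 and 1701 counts and 0.738 (0.677 to 0.804). Tnc, the gene of tenascin C, had 327 and 693 counts with 0.762 (0.666 to 0.870). Postn, the gene of periostin, had 126 and 284 counts with 0.716 (0.576 to 0.887), and Sparc, a collagen-binding glycoprotein, had 598 and 1126 with 0.858 (0.775 to 0.948). All 6 genes of the group had intervals below 1, of which 4 kept it under TMM and 3 under DESeq2 scaling. Relative to span class 3 did, the intervals of Thbs1 and Postn held 1, and Sparc came to 1.08 (0.978 to 1.20). Thbs3, a thrombospondin relative on chromosome 3 between 89215180 and 89226841, was the lowest member, with 26 counts in the HP1 library and 101 in the input, a ratio of 0.416 (0.259 to 0.645). With so few HP1 counts a ratio past 2-fold followed from the listing limit, and Thbs3 is among the genes that kept an interval below 1. Of the proteoglycans, Bgn (biglycan) had 368 and 798 counts and 0.745 (0.656 to 0.844), and Vcan (versican) had 68 and 154 and 0.713 (0.528 to 0.955). Only Bgn still had an interval below 1 with TMM and DESeq2 factors, and relative to span class neither did.

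Microfibril genes and latent TGF-beta binding proteins lay nearer to 1, with a median ratio of 0.873. Fbn1, the gene of fibrillin 1, had 505 and 934 counts and 0.873 (0.782 to 0.974), and Fbln2, a fibulin, had 198 and 398 and 0.803 (0.674 to 0.955). Fbln1 had 95 and 158 counts and 0.971 (0.745 to 1.26). Ltbp1 encodes a protein that tethers latent TGF-beta to the matrix, and Ltbp2 is its relative. Ltbp1 had 555 and 826 counts and 1.09 (0.973 to 1.21), and Ltbp2 had 232 and 432 and 0.867 (0.736 to 1.02). No gene of this group kept an interval below 1 under TMM or DESeq2 scaling, and that of Ltbp1 then lay above 1. Relative to listed genes of its span class Ltbp1 turned, to 0.779 (0.698 to 0.868).

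**Figure D2:**
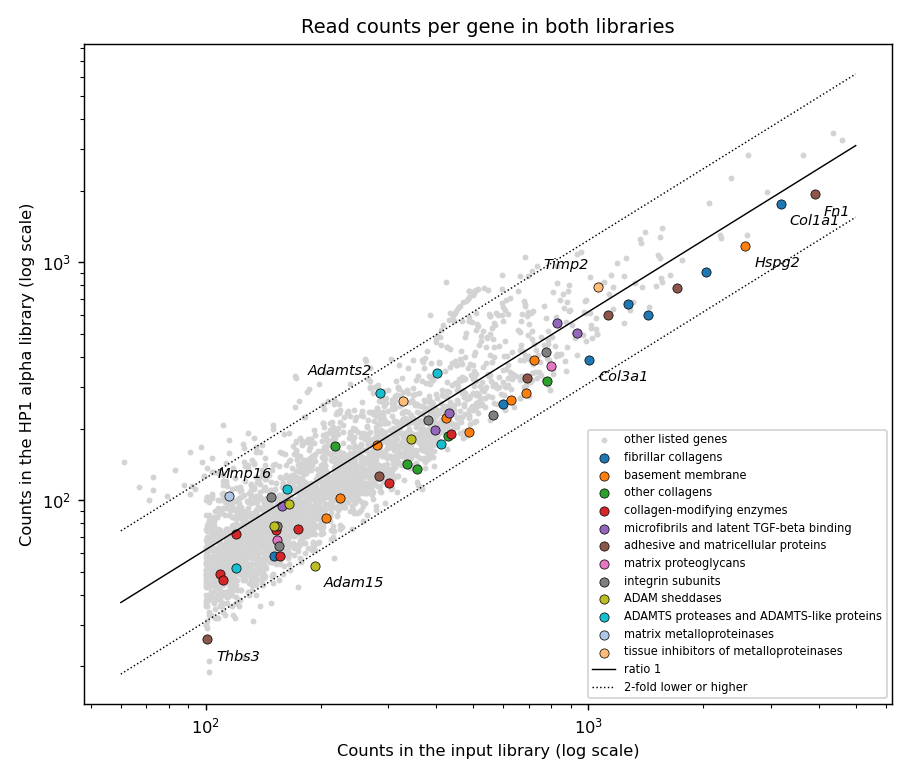
Counts of each gene in the input (x axis) and HP1 alpha (y axis) libraries, both on log axes, with the 60 genes coloured by role over the other listed genes in grey. The solid line marks a ratio of 1 and the dotted lines 2-fold. Fn1 and Col1a1 have the most counts and lie just under the solid line, and only Thbs3 and Adam15 among the coloured points lie beyond the lower dotted line.

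Integrin subunits were mixed, with a median ratio of 0.845 over 6 genes, against 0.865 over all listed genes. Of the 6, 3 had intervals below 1 and none above, against 32.6% and 15.4% of all listed genes. Itgb1, the beta subunit shared by most collagen, laminin and fibronectin receptors, had 419 and 776 counts and 0.872 (0.772 to 0.983). Itgav, the alpha subunit of the vitronectin and fibronectin receptors, had 229 and 564 counts and 0.656 (0.560 to 0.766), and was the only one of the 6 to keep an interval below 1 under TMM and DESeq2 scaling. Relative to Itgb1 the ratio of Itgav was 0.752 (0.616 to 0.917). Itga3, the alpha subunit of a laminin receptor, had 64 and 155 counts and 0.667 (0.490 to 0.898). The beta subunits Itgb5 and Itgb8, which pair with Itgav, had intervals that held 1. Itgb5 had 218 and 381 counts and 0.924 (0.779 to 1.09), and Itgb8 had 78 and 154 and 0.818 (0.615 to 1.08). Itga11, the alpha subunit of a fibroblast collagen receptor, had 103 and 148 counts and 1.12 (0.865 to 1.46), and its interval lay above 1 with DESeq2 factors.

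The ADAM proteases, membrane enzymes that shed ectodomains, had 1 member called lower. Adam15 had 53 counts in the HP1 library and 193 in the input, a ratio of 0.443 (0.321 to 0.604), lower than all but 0.319% of listed genes. It spans 10.4 kb of chromosome 3 between 89339640 and 89350028. Its low HP1 count fixed a ratio under 1, though not its size, and under TMM and DESeq2 scaling it was under 2-fold. Adam10 and Adam17, the main sheddases of Notch and of TNF, had 180 and 344 and 78 and 151 counts, with ratios of 0.845 (0.702 to 1.01) and 0.834 (0.626 to 1.10). One relative to the other, these came to 1.01 (0.722 to 1.43). Adam19 had 96 and 165 counts and 0.940 (0.723 to 1.22).

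ADAMTS proteases and their relatives lay on both sides of 1. Adamts2, which removes the amino-terminal propeptide of fibrillar procollagens, had the highest ratio of all members, with 282 counts in the HP1 library and 286 in the input, or 1.59 (1.35 to 1.88). Adamts2 occupies chromosome 11 between 50602085 and 50807573, and its ratio was above that of 94.0% of the other listed genes. Adamtsl3, a secreted relative without a protease domain, had 341 and 403 counts and 1.37 (1.18 to 1.58), and Adamtsl1, another, had 112 and 163 and 1.11 (0.864 to 1.42). Adamts1, which cuts versican and aggrecan, had 172 and 412 counts and 0.674 (0.561 to 0.807), and Adamts10, which acts on microfibrils, had 52 and 120 and 0.700 (0.495 to 0.977). For Adamts10 the listing limit fixed a ratio under 1. The high and low genes differed in length. Adamts2, Adamtsl3 and Adamtsl1 span 205, 279 and 915 kb, against 9.29 and 30.1 kb for Adamts1 and Adamts10. Relative to span class Adamtsl1 turned, to 0.720 (0.561 to 0.921). Of 23 matrix metalloproteinases sought, only Mmp16, a membrane-type enzyme, was listed. It had 104 and 115 counts and 1.46 (1.11 to 1.92), over a span of 264 kb.

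Both listed TIMPs were above 1. Timp2, an inhibitor that also takes part in the activation of pro-MMP2, had 788 and 1060 counts, giving a ratio of 1.20 (1.09 to 1.32). Timp3, the inhibitor that stays bound to the matrix, had 262 and 328 counts and 1.29 (1.09 to 1.52). Together they held 0.204% (0.192 to 0.217) of the listed HP1 counts and 0.167% (0.159 to 0.176) of the listed input counts. They kept intervals above 1 under TMM and DESeq2 scaling. Timp3, on chromosome 10 from 86300412 to 86349505, lies wholly inside the RefSeq span of Syn3, a longer gene that was not listed. Timp2, on chromosome 11 from 118301061 to 118355411, shares 18.7% of its span with Cep295nl, also not listed. Whether reads of these genes were counted together was not tested.

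**Figure D3:**
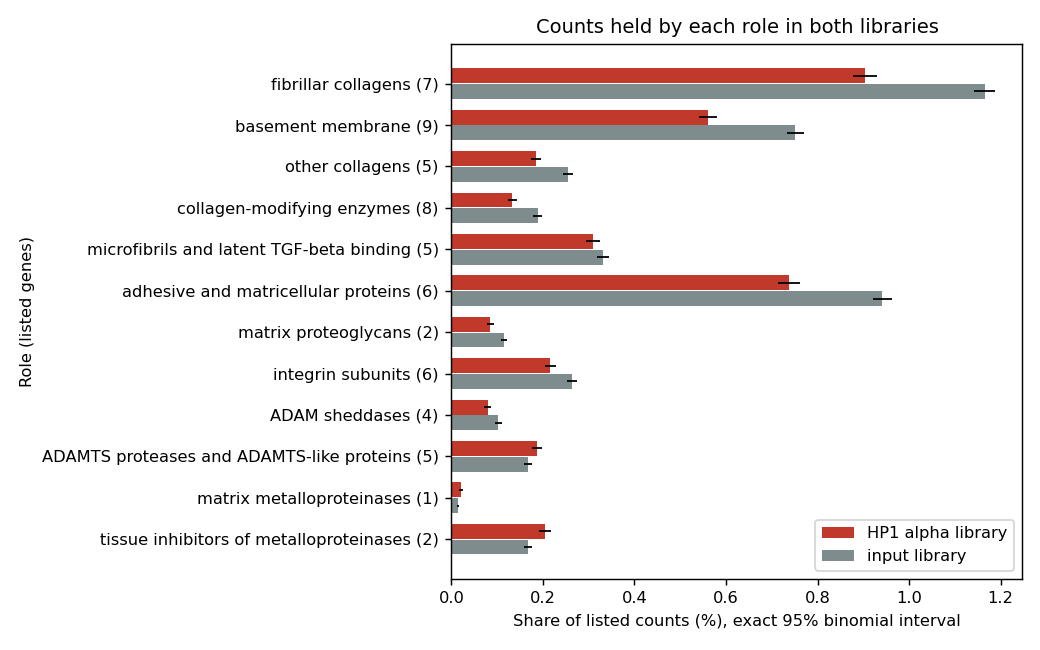
Share of listed counts (%) held by each role in the HP1 alpha library (red) and the input (grey), with exact 95% binomial intervals and the number of listed genes in brackets. Fibrillar collagens hold 0.903% and 1.17%, and the TIMPs, the ADAMTS group and the single metalloproteinase are the only roles with the longer bar in the HP1 alpha library.

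The ratio moved with gene length among these genes as over the whole table. Spearman's rho between ratio and RefSeq span, introns included, was 0.51 over the 60 members (Pearson's r with log10 span 0.57) and 0.61 over the 3088 listed genes with a span (0.60). All points share the same pair of libraries, and genes are not independent replicates. Input counts per kb ran the opposite way, with rho -0.41 among members, although counts per kb contain the span. Within 10 to 50 kb the sign turned, with rho 0.21 over 22 members, and within 50 to 200 kb it was -0.38 over 29. Col1a1, Thbs1, Bgn, Lamb2 and Fn1 had 189, 111, 64.7, 58.7 and 57.7 input counts per kb of span, whereas Mmp16 and Adamtsl1 had 0.435 and 0.178. The input count itself showed rho 0.036 with the ratio.

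Compared with listed genes of like length, the members still had lower ratios. In each span class that held more than 1 member, the members' median lay under that of all listed genes. Between 10 and 50 kb it was 0.690 over 22 members against 0.793. Between 50 and 100 kb it was 0.796 over 16 against 0.890, and between 100 and 200 kb it was 0.845 over 13 against 1.07. Between 200 and 500 kb it was 1.23 over 6 against 1.39. Each ratio was then divided by the median of its class. In this form 12 of the 60 members were above 1, the median was 0.857, and 28 intervals lay below 1 and 3 above, against 12.5% and 15.8% of all genes with a span. The 3 above were Timp3 with 1.63, Timp2 with 1.35 and Col1a1 with 1.13, whose ratio as such was under 1. Adamts2 came to 1.14, Col8a1 to 1.17, Mmp16 to 1.05 and Adamtsl3 to 0.981, none with an interval off 1. Long genes of low ratio stood out instead, with Col4a5 at 0.525, Col4a1 at 0.600, Fbn1 at 0.627, Col5a2 at 0.630 and Col11a1 at 0.642. Thbs3 and Adam15, at 0.524 and 0.559, were no longer past 2-fold.

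**Figure D4:**
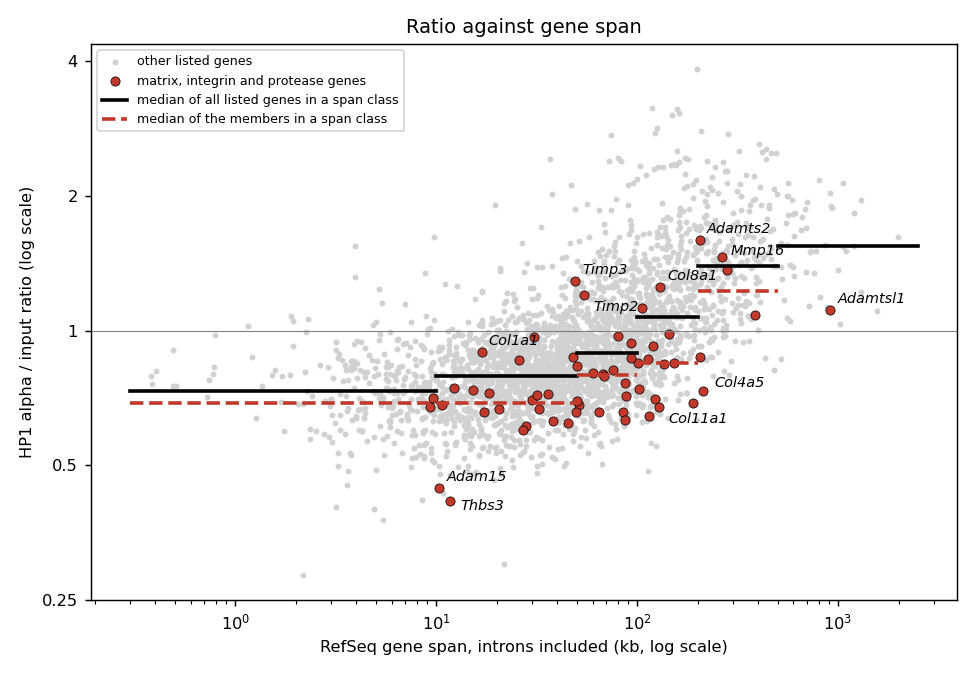
Ratio of HP1 alpha over input (y axis, log scale) against RefSeq gene span in kb (x axis, log scale) for the 60 genes (red) and the other listed genes (grey). Bars mark the medians of all listed genes (black) and of the members (red, dashed) in each span class with more than 1 member. The dashed bars lie under the black ones, while Timp2 and Timp3 lie above the bar of their class.

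Other genes of the same pathway were taken from 4 lists. Of all listed genes, 32.6% had intervals below 1 and 15.4% above. Of 24 genes for collagen folding and secretion, 6 were listed, 0 higher and 0 lower, and 5 had intervals below 1, with a median ratio of 0.724. P4hb, the protein disulfide isomerase that is also the beta subunit of prolyl hydroxylase, had 328 and 733 counts and 0.723 (0.632 to 0.824). The chaperone gene Hsp90b1 had 315 and 702 counts and 0.725 (0.632 to 0.829), and Pcolce, which enhances procollagen processing, had 269 and 536 and 0.810 (0.697 to 0.940). Fkbp10, a collagen chaperone, had 84 and 197 counts and 0.689 (0.527 to 0.893). Their median relative to span class was 0.928.

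Focal adhesion genes link integrins to actin, and 17 of 31 were listed. None was called higher or lower, and the median ratio was 0.913. Of the 17, 7 had intervals below 1 and 5 above, against 32.6% and 15.4% of all listed genes. Flna, a filamin, had 1260 and 2229 counts and 0.913 (0.851 to 0.979), and Tln1, the integrin-activating talin, had 555 and 1243 and 0.721 (0.651 to 0.798). Tns3, a tensin, had 583 and 774 counts and 1.22 (1.09 to 1.36). Relative to span class the median of this list was 1.02, against 0.857 for the members.

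Matrix genes that the symbol pattern did not cover had 21 of 46 listed, 11 with intervals below 1 and 3 above, and a median ratio of 0.793. Slit2, a secreted guidance protein, had 786 and 1161 counts and 1.09 (0.997 to 1.20), and Agrn, the proteoglycan agrin, had 404 and 823 and 0.793 (0.702 to 0.894). Svep1 had 487 and 806 counts and 0.976 (0.870 to 1.09), and Gpc6, the proteoglycan glypican 6, had 545 and 572 and 1.54 (1.37 to 1.73). The median relative to span class was 0.910. Of 19 other matrix proteases and inhibitors, 6 were listed, 3 with intervals below 1 and none above, and the median ratio was 0.809. Ctsd, the lysosomal protease cathepsin D, had 195 and 399 counts and 0.789 (0.662 to 0.939), and Serpinf1 had 119 and 243 and 0.791 (0.630 to 0.989). Cst3, the protease inhibitor cystatin C, had 81 and 158 counts and 0.828 (0.625 to 1.09), and Reck, a membrane inhibitor of metalloproteinases, had 79 and 126 and 1.01 (0.754 to 1.35). Relative to span class the median of this list was above 1, at 1.05. In all 4 lists 0 genes passed 2-fold in either direction.

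**Figure D5:**
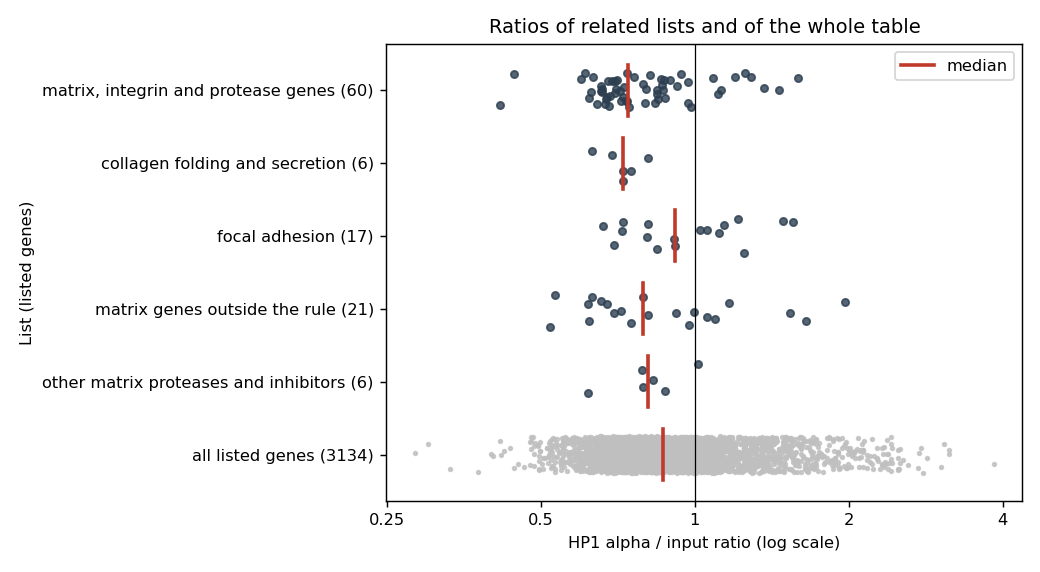
Ratio of HP1 alpha over input (log axis) of each listed gene in the 60 genes, the 4 related lists and the whole table, with vertical jitter only for display and red bars at the medians. The medians run from 0.724 for collagen folding and secretion to 0.913 for focal adhesion, and that of the 60 genes is 0.742 against 0.865 for all listed genes.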

How the data were processed

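The authors deposited 1 table with read counts per gene for both libraries and a ratio column. Per the submitters' processing notes, STAR 2.6.0c and featureCounts were used with GRCm38. For the strand setting, the counted features and PCR duplicates, the settings were not given in the sources used here. Per the file headers the deposited ratio is normalized to total mapped reads, and it served only as an alternative scaling. Columns of other samples numbered 0.

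Listed totals of 513965 and 830031 scaled the counts. They are sums of listed genes and not depths. Exact (Clopper-Pearson) 95% intervals came from the binomial split of both counts, with scipy 1.17.1. The log2 ratios used a pseudocount of 0.5. Ratios between gene pairs are conditional odds ratios with exact intervals. Upper over lower interval bound was 1.42 in the median and 2.49 at most. A count model such as edgeR's could not be fitted with 1 library a group. Symbols, spans and positions came from RefSeq, assembly GRCm38.p6, where all 60 members matched, 2 of them overlapping another listed gene. With RefSeq genes that were not listed included, on either strand, 27 of the 60 overlapped another gene. Whether reads of such genes were counted together was not tested. Span classes were divided at 10, 50, 100, 200 and 500 kb.

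The symbol pattern that defines the members, the lists and the pairs were chosen with earlier results of these data known. All members were named, with up to 4 genes of each related list, those with the most counts over both libraries. One gene that this rule names is not reported here. Alternatives were TMM factors (edgeR 4.0.16), DESeq2 1.42.0 size factors, the authors' constant, a pseudocount of 5, a minimum of 400 counts, span classes, omission of overlapping genes and a 1.5-fold rule.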

Additional observations from a re-analysis of the deposited data

How the results depend on the processing

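No paired analysis was possible because only a single library stands for each group, and no replicate could be left out. The number of members called higher, 0 as reported, was 1 (Adamts2) at 1.5-fold and 0 under the other alternatives run. The number called lower, 2 as reported, was 0 relative to span class, 0 at a minimum of 400 counts, 1 (Thbs3) with TMM, 1 with DESeq2 factors and 12 at 1.5-fold. For Thbs3 the listing limit alone fixed a ratio past 2-fold, also with TMM and DESeq2 factors, so that its call remained tells nothing. The minimum removed Thbs3 and Adam15, which have fewer counts. Over all 3134 listed genes, 127 were called higher and 9 lower with TMM, and 132 and 9 with DESeq2 factors. Relative to span class these were 42 and 3 of 3088 genes. At 1.5-fold the calls over all listed genes were not counted, so the members' 1 and 12 have no background. Intervals above 1, 6 as reported, were 3 relative to span class. Intervals below 1, 40 as reported, were 25 with TMM and 24 with DESeq2 factors. The members' median log2 ratio of -0.43 was -0.23 with TMM factors, -0.22 with DESeq2 factors and -0.22 relative to span class, and it stayed negative under every alternative run. The TMM, DESeq2 and authors' factors multiply every ratio alike, so the order of the genes did not change with them. The authors' constant, a pseudocount of 5 counts and leaving out Col4a1 and Col4a2, which overlap, kept each count within 1.5 times that reported, with medians of -0.39, -0.40 and -0.43. Single ratios stayed within their counting intervals for 43 of 60 members with TMM, 42 with DESeq2, 60 with the authors' constant and 35 relative to span class. Precision is least for genes near 100 counts.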

Other observations

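These genes were picked after their values were seen. In the scaffold that joins integrins to actin through integrin-linked kinase, Parva and Rsu1 had intervals above 1. Parva (parvin alpha) had 512 counts in the HP1 library and 532 in the input, a ratio of 1.55 (1.37 to 1.76), and Rsu1, its partner through PINCH, had 190 and 206 and 1.49 (1.22 to 1.82). The pseudokinase gene Ilk had 52 and 121 counts and 0.694 (0.491 to 0.968), and the PINCH gene Lims1 had 281 and 499 and 0.909 (0.783 to 1.05). For Ilk the listing limit alone fixed a ratio under 1, so its direction tells nothing, and the interval of Lims1 held 1. Parva and Rsu1 span 164 and 194 kb and Ilk 6.34 kb, and relative to span class the ratios were 1.45, 1.39 and 0.949. Among cell-surface proteoglycans and guidance ligands, Slit3 had 592 and 487 counts and 1.96 (1.74 to 2.22), and Sdc2 had 487 and 476 and 1.65 (1.45 to 1.88). Relative to span class these were 1.27 and 1.54, against 0.998 for Gpc6. The syndecans Sdc1 and Sdc3 had 58 and 143 and 41 and 107 counts, with ratios of 0.655 and 0.619. For both the listing limit alone fixed a ratio under 1, so their direction tells nothing. The syndecan Sdc4 had 246 and 432 counts and 0.920 (0.783 to 1.08), an interval that holds 1. Emilin1, an elastic fibre glycoprotein gene, had 116 and 359 counts and 0.522 (0.420 to 0.645).

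The members with the 2 lowest ratios, Thbs3 and Adam15, are near neighbours, 112.8 kb apart on chromosome 3. Besides them, 3 listed genes lie within 200 kb of them, and their ratios were 0.893 for Ash1l, 0.996 for Shc1 and 0.623 for Pbxip1. Col3a1 and Col5a2, which lie 24.6 kb apart on chromosome 1, had 0.626 and 0.676. Col6a1 and Col6a2, 85.2 kb apart on chromosome 10, had 0.656 and 0.611, whereas Col1a1 and Itga3, 91.4 kb apart on chromosome 11, had 0.895 and 0.667. Of the 5 pairs of members closer than 200 kb, Col4a1 and Col4a2 are the fifth.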
